A study of Homo sapiens with 4 samples.

Results

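NRF2, encoded by NFE2L2, is the main transcription factor of the cellular response to oxidants and electrophiles. The 9 genes described here are NFE2L2, its inhibitor KEAP1, the NRF2 targets NQO1, HMOX1, TXNRD1 and SRXN1, and the small MAF genes MAFF, MAFG and MAFK. They were chosen by symbol among the 20263 Ensembl genes of the deposited count table, each symbol matched 1 gene, and all 9 passed the filter on low counts. RNA was sequenced from MDA-MB-231 cells, a human line of triple-negative breast cancer, that had been kept for 24 h with RB-BC or with the vehicle DMSO, and each group had 2 libraries. RB-BC is derived from ribociclib, which inhibits CDK4 and CDK6. No source used here states its dose, and the treatment protocol speaks of Rib_CA without saying that this is RB-BC. The labels do not describe the replicates as separate cultures, so every p-value rests on a spread between libraries that may be technical. In bulk RNA a change in every cell and a change in the share of cells that express a gene cannot be told apart.

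In unstressed cells KEAP1 holds NRF2 in the cytoplasm and hands it to a CUL3 ubiquitin ligase, so that NRF2 is controlled largely at the level of protein. Oxidants modify KEAP1, NRF2 accumulates, pairs with a small MAF protein in the nucleus and binds the antioxidant response element. Small MAF proteins have a leucine zipper but no activation domain. They also pair with each other and with the repressor BACH1, which occupies many of the same sites, HMOX1 among them. NRF2 protein was not measured here.

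Library totals ran from 34774542 to 42786422 counts. The library DMSO 2 stood apart, with 21.7% of its counts from mitochondrially encoded genes against 8.68% to 10.3% in the other libraries. Markers of MDA-MB-231 and mesenchymal cells summed to 7053 and 7443 TMM-scaled CPM in RB-BC, against 5336 and 6561 CPM in DMSO. VIM made most of this sum, at 5225 and 5465 CPM in RB-BC, against 3303 and 4147 CPM in DMSO. The single markers differed in direction. ZEB1 passed as higher (log2 fold change 0.81, edgeR adjusted p = 0.0220). VIM (0.52), SPARC (0.50), CD44 (−0.0085) and AXL (−0.36) did not pass. The 7 luminal and epithelial markers summed to 421 and 406 CPM in RB-BC, against 510 and 631 CPM in DMSO. Most of that came from the keratin genes KRT8 and KRT18, which were lower in both RB-BC libraries without passing (edgeR adjusted p = 0.113 for KRT8 and 0.114 for KRT18), and CDH1 had at most 2 counts in any library. The 8 leukocyte, fibroblast and endothelial markers together summed to 9.50 and 8.97 CPM in RB-BC, against 12.0 and 11.5 CPM in DMSO, and CD3E had no count in any library. Of these COL1A1 alone passed, as lower in RB-BC (log2 fold change −1.15, edgeR adjusted p = 0.0290). PTPRC (1.14) and PECAM1 (0.97) were higher in both RB-BC libraries without passing. The part of these marker levels in the results below was not tested.

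The stretches below are shown because they are where the antioxidant response element could be looked for directly in the genes whose values follow. RefSeq promoter windows (GRCh38.p14) were matched by symbol for 7 of the 9 genes, with 11 annotated starts, and the 250 bases before each start were searched on both strands. The element's core, TGACNNNGC, was found upstream of MAFF, TXNRD1 and KEAP1, and in 10.9% of all 35116 windows. The cyclic AMP response element TGACGTCA, found upstream of MAFF, is in 1.65% of windows, and the AP-1 site TGANTCA, found in none of the 11, is in 6.57%. Matches are in capitals on the last 140 bases before a start, printed 5′ to 3′ on the gene's own strand.
MAFF, chr22:38201854-38201993, plus strand: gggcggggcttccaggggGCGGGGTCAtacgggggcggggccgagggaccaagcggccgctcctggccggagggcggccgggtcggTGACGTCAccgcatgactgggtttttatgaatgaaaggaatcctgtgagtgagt
MAFG, chr17:81927736-81927875, minus strand: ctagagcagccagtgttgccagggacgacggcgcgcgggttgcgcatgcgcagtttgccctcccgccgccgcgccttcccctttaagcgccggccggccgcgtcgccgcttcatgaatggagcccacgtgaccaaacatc
TXNRD1, upstream start, chr12:104215639-104215778, plus strand: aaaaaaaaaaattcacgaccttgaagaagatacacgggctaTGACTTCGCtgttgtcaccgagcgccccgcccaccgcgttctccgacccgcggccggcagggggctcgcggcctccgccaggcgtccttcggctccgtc
TXNRD1, downstream start, chr12:104286892-104287031, plus strand: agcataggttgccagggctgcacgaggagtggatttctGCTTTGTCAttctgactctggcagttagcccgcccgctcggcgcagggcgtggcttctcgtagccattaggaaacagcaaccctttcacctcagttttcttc
KEAP1, downstream start, chr19:10502772-10502911, minus strand: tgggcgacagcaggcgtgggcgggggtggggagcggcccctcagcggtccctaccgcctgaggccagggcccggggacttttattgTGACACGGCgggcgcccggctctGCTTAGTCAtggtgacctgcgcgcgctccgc
NQO1, chr16:69726561-69726700, minus strand: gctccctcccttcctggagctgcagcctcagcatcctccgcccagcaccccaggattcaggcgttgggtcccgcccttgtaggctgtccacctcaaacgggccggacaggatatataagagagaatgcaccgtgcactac
The MAFF stretch holds the element core 122 bases and the cyclic AMP response element 54 bases before the start, and they do not overlap. The core lies 99 and 102 bases before the TXNRD1 starts and 54 and 31 bases before the KEAP1 start. A match is only a run of letters, and binding was not measured in these cells. The lack of a match, as for NQO1 and MAFG, covers only the 250 bases searched and says nothing of sequence further away. HMOX1 and MAFK had no window and were not searched.

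After RB-BC the small MAF genes MAFF and MAFK rose, while NFE2L2 and KEAP1 did not pass the test and the NRF2 targets lay in different directions without passing. By edgeR's quasi-likelihood test, with an adjusted p under 0.05 over all 13744 genes tested, 2 of the 9 genes were higher in RB-BC and 0 were lower. At an unadjusted p under 0.05 edgeR gave 5 higher and 1 lower, DESeq2 gave 4 higher and 1 lower after adjustment, and limma-voom gave 3 and 0. Over all 13744 tested genes DESeq2 called 1639 higher and 1583 lower, and limma-voom 1226 higher and 1055 lower. The share of all genes at an unadjusted p under 0.05 is not given here, so those counts have no background. By edgeR's adjusted test 16.1% of all tested genes passed, 8.58% higher and 7.53% lower, so a share of 22.2% among 9 genes is close to the background. Without RB-BC 1 the call of MAFK was lost and 1 gene was higher, and with either DMSO library left out HMOX1 and TXNRD1 passed too, which made 4. With library totals alone as the scaling, 65.6% of all calls were upward, against 53.3% with TMM. The median log2 fold change was 0.51 over the 9 genes and −0.0016 over all tested genes. RB-BC and DMSO libraries did not overlap in 8 of the 9, NFE2L2 being the exception, where 65.2% of tested genes do not overlap.

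**Figure D1:**
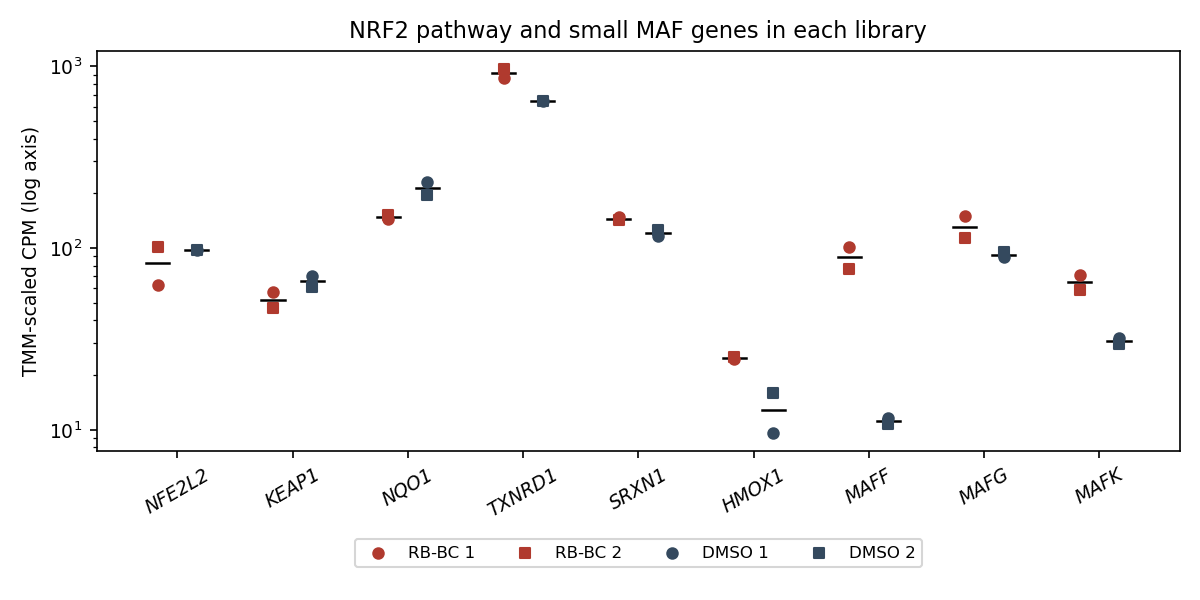
TMM-scaled CPM (log axis) of the 9 genes in each library, with RB-BC in red left of DMSO in dark blue, circles for replicate 1, squares for replicate 2 and a bar at the mean of 2. MAFF at 102 and 77.2 CPM in RB-BC lies far above its 11.7 and 10.7 CPM in DMSO, while NFE2L2 overlaps between the groups.

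MAFF encodes the small MAF protein best known as a stress- and cytokine-inducible member of the family. It had 4417 and 3382 counts in RB-BC 1 and RB-BC 2, against 439 and 360 counts in DMSO 1 and DMSO 2. In scaled terms it had 102 and 77.2 CPM in RB-BC, against 11.7 and 10.7 CPM in DMSO. Both RB-BC libraries were far above both DMSO libraries, and the gap between groups was larger than the gap within either. The log2 fold change was 2.998 ± 0.19 (SE, edgeR adjusted p = 0.00378), or 7.99-fold, and 99.5% of tested genes had a lower one. The call held without any 1 of the 4 libraries, at values from 2.79 to 3.18.

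MAFK, a small MAF protein first described as a subunit of the erythroid factor NF-E2, rose less. It had 71.1 and 58.8 CPM in RB-BC, against 32.1 and 29.6 CPM in DMSO. The groups were well separated, with a log2 fold change of 1.07 ± 0.16 (SE, edgeR adjusted p = 0.0145), or 2.11-fold. With RB-BC 1 left out the value was 0.93 and missed the threshold (edgeR adjusted p = 0.117). Exons of MAFK share 18.1% of their length with TMEM184A on the opposite strand, whose own counts were 139 and 121 in RB-BC and 138 and 145 in DMSO. The strand setting of the counting is not given, so reads of the shared stretch cannot be assigned with certainty.

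MAFG, the small MAF protein most often found with NRF2, had 149 and 113 CPM in RB-BC, against 89.4 and 95.1 CPM in DMSO. Both RB-BC values were the higher ones, but they lay further apart from each other than the DMSO values did. Its log2 fold change of 0.51 ± 0.18 (SE) did not pass (edgeR adjusted p = 0.101). It was positive under each of the 12 alternative settings, from 0.30 without RB-BC 1 to 0.70 without RB-BC 2, and passed in none.

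The 3 small MAF genes together reached 62.7 and 48.6 CPM per kilobase of exon in RB-BC, against 26.4 and 26.8 in DMSO. Their make-up also differed. MAFF made 28.9% and 28.3% of small MAF reads per kilobase in the RB-BC libraries, against 7.87% and 7.15% in the DMSO libraries. MAFG made 45.1% ± 0.71 in RB-BC (SD, n = 2), against 66.5% ± 2.25 in DMSO, and so remained the most abundant of the 3 in both groups. The MAFK share was nearly level, at 26.3% ± 1.18 in RB-BC and 26.0% ± 1.74 in DMSO. These shares do not depend on how libraries are scaled to each other. The ratio of MAFF to MAFG per kilobase was 0.634 and 0.633 in RB-BC, against 0.121 and 0.105 in DMSO, a 5.61-fold difference. An exact two-sided permutation test on 2 against 2 libraries gave p = 0.333, the smallest p it can give, for this ratio and for each ratio below whose groups do not overlap.

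**Figure D2:**
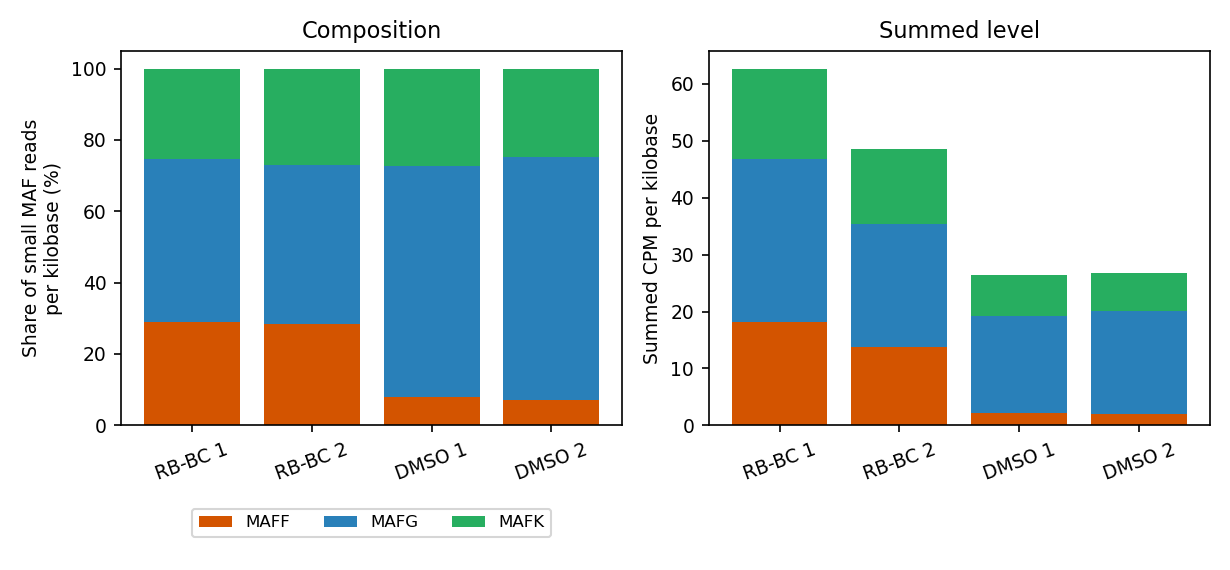
Left, share of MAFF, MAFG and MAFK in their summed reads per kilobase (percent) in each library. Right, their stacked CPM per kilobase, which sums to 62.7 and 48.6 in the RB-BC libraries and to 26.4 and 26.8 in the DMSO libraries.

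NFE2L2 itself had 62.8 and 102 CPM in RB-BC, against 97.3 and 97.9 CPM in DMSO. RB-BC 1 was low, while RB-BC 2 was just above both DMSO libraries, so the groups overlapped. The log2 fold change was −0.24 ± 0.24 (SE, edgeR adjusted p = 0.501), and its sign turned on which RB-BC library was used, with 0.067 without RB-BC 1 and −0.64 without RB-BC 2. NFE2L2 shares 17.6% of its annotated exon length with the same-strand gene AC019080.1, which has no row of its own. How reads of the shared stretch were counted is not given.

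KEAP1, the substrate adaptor that brings NRF2 to its ubiquitin ligase, had 57.3 and 47.0 CPM in RB-BC, against 70.2 and 61.3 CPM in DMSO. Both RB-BC libraries were lower, but the gap between the groups was smaller than the gap within either, and the log2 fold change of −0.34 ± 0.16 (SE) did not pass (edgeR adjusted p = 0.202). The ratio of NFE2L2 to KEAP1 per kilobase was 0.690 and 1.37 in RB-BC, against 0.872 and 1.01 in DMSO, so the DMSO values lay between the RB-BC values.

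The 4 NRF2 targets did not move together. HMOX1, the inducible heme oxygenase that splits heme into biliverdin, iron and carbon monoxide, had 24.6 and 25.2 CPM in RB-BC, against 9.67 and 15.9 CPM in DMSO. The RB-BC libraries nearly coincided, whereas the DMSO libraries were far apart, with DMSO 2, the library with the high mitochondrial share, nearer to RB-BC. The log2 fold change of 0.96 ± 0.25 (SE) just missed the threshold (edgeR adjusted p = 0.0535). It was 1.36 without DMSO 2 and 0.64 without DMSO 1, and passed in both of those fits (edgeR adjusted p = 0.00861 and 0.0363), in which the lone DMSO library is assumed to vary like the RB-BC pair. The part of the mitochondrial share in the HMOX1 difference was not tested. HMOX2, the constitutive heme oxygenase, had 34.9 and 30.7 CPM in RB-BC, against 39.9 and 41.7 CPM in DMSO, and did not pass (−0.32, edgeR adjusted p = 0.187). The ratio of HMOX1 to HMOX2 per kilobase was 1.11 and 1.30 in RB-BC, against 0.382 and 0.602 in DMSO, and so was higher in both RB-BC libraries. Which of the pair was the more abundant in RB-BC depends on the exon lengths used. In CPM alone HMOX1 was below HMOX2 in every library.

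TXNRD1, the cytosolic selenoprotein that reduces thioredoxin, was the most abundant of the 9 genes. It had 866 and 968 CPM in RB-BC, against 643.5 and 643.4 CPM in DMSO. Both RB-BC libraries were higher, and the DMSO libraries were almost equal. The log2 fold change of 0.51 ± 0.15 (SE) did not pass (edgeR adjusted p = 0.0726), though it did by DESeq2 (adjusted p = 0.0106). With DMSO 1 or DMSO 2 left out it was at 0.51 in each fit and passed narrowly (edgeR adjusted p = 0.0488 for the fit lacking DMSO 1 and 0.0437 for the fit lacking DMSO 2).

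NQO1, a quinone reductase widely used as a readout of NRF2 activity, lay the other way. It had 145 and 153 CPM in RB-BC, against 230 and 196 CPM in DMSO. Both RB-BC libraries were below both DMSO libraries. The log2 fold change of −0.52 ± 0.15 (SE) did not pass (edgeR adjusted p = 0.0677), but it did by DESeq2 (adjusted p = 0.0182). With DMSO 2 left out it was −0.63 and passed (edgeR adjusted p = 0.0210). Taken within each library, the ratio of TXNRD1 to NQO1 per kilobase was 2.90 and 3.07 in RB-BC, against 1.36 and 1.59 in DMSO. The groups did not overlap, and the ratio differed 2.03-fold whatever the scaling. NQO1 shares 17.7% of its exon length with the opposite-strand gene AC092115.2, which has no row of its own. The strand setting of the counting is not given.

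SRXN1, sulfiredoxin, which repairs over-oxidised peroxiredoxins, had 148 and 143 CPM in RB-BC, against 117 and 126 CPM in DMSO. The groups were close but did not overlap, and the log2 fold change of 0.26 ± 0.14 (SE) did not pass (edgeR adjusted p = 0.238). Its level is uncertain, because 85.0% of its exon length is shared with the same-strand gene AL121758.1, which has its own row with 90 and 45 counts in RB-BC and 1 and 3 counts in DMSO. How the counting divided reads between these genes is not given.

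Ordered by mean level per kilobase of exon in DMSO, TXNRD1 (95.9 CPM per kilobase) was followed by NQO1 (65.5 ± 7.31) and SRXN1 (45.2 ± 2.45, SD, n = 2). MAFG (17.7 ± 0.77), KEAP1 (17.5 ± 1.68) and NFE2L2 (16.3 ± 0.069) came next. KEAP1 lay within its spread of both neighbours, while the MAFG values, 17.1 and 18.2, were above the NFE2L2 values, 16.3 and 16.4. MAFK (6.92 ± 0.39) and HMOX1 (5.32 ± 1.84) did not differ beyond their spread either, and MAFF was lowest at 2.00 ± 0.12. In RB-BC the order differed at several places. SRXN1 (53.9 ± 1.48) stood above NQO1 (45.8 ± 1.77). The means of MAFK (14.6 ± 1.96), KEAP1 (13.9 ± 1.94) and NFE2L2 (13.8 ± 4.63) lay within the spread of MAFF (15.9 ± 3.11). HMOX1 had the lowest mean, 10.3 ± 0.19, which lay within the spread of NFE2L2. These orders rest on the annotated exon lengths, and CPM alone gave another order in places. In CPM NFE2L2 (97.3 and 97.9) lay above MAFG (89.4 and 95.1) in DMSO, and SRXN1 and NQO1 overlapped in RB-BC.

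**Figure D3:**
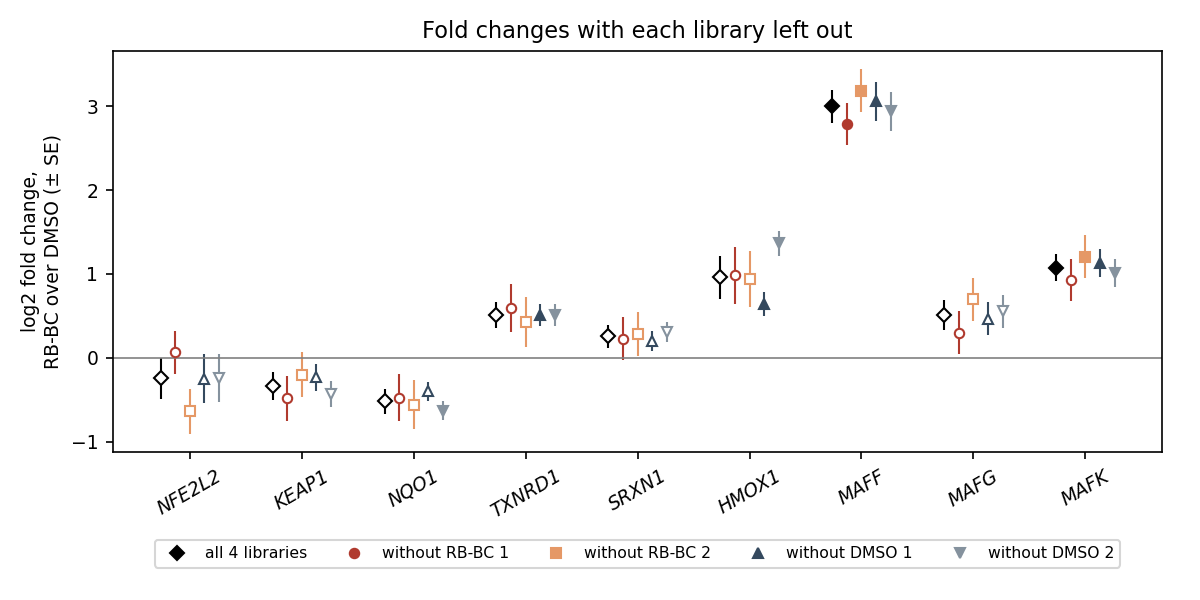
Log2 fold change, RB-BC over DMSO, of the 9 genes with all 4 libraries and with each left out. Bars are 1 SE, and filled symbols passed at an adjusted p under 0.05, except that legend symbols are all filled. MAFF stays between 2.79 and 3.18 and is filled throughout, whereas NFE2L2 lies on either side of 0 depending on the RB-BC library left out.

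Small MAF proteins act only through partners, most of them of the CNC and BACH families, and 3 of the 5 partner genes other than NFE2L2 rose while 0 fell. DESeq2 gave the same counts, and edgeR gave 0 lower at an unadjusted p under 0.05 as well. Of all tested genes 8.58% were higher and 7.53% lower by edgeR's test. The list is short and was written with earlier results of these data known, so the count is a description only. BACH1, a heme-sensitive repressor of HMOX1 and of other genes that NRF2 activates, had 131 and 114 CPM in RB-BC, against 54.4 and 43.0 CPM in DMSO. Its log2 fold change was 1.33 ± 0.18 (SE, edgeR adjusted p = 0.0114), and with RB-BC 1 left out it was 1.23 and missed the threshold (edgeR adjusted p = 0.0769). The ratio of BACH1 to NFE2L2 per kilobase was 1.61 and 0.868 in RB-BC, against 0.433 and 0.340 in DMSO. BACH1 was thus higher relative to NFE2L2 in both RB-BC libraries, by unequal amounts.

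NFE2L1, the CNC factor that restores proteasome genes when proteasome activity is short, had 529 and 466 CPM in RB-BC, against 257 and 304 CPM in DMSO. It rose by 0.83 ± 0.16 on the log2 scale (SE, edgeR adjusted p = 0.0272). NFE2L3, a related CNC factor, had 392 and 379 CPM in RB-BC, against 227 and 216 CPM in DMSO, and rose by 0.80 ± 0.14 (SE, edgeR adjusted p = 0.0200). Neither passed with RB-BC 1 left out (edgeR adjusted p = 0.224 for NFE2L1 and 0.184 for NFE2L3) or with RB-BC 2 left out (0.114 and 0.134 in the same order), at values between 0.73 and 0.92. BACH2 had 6.52 and 8.19 CPM in RB-BC, against 6.03 and 4.30 CPM in DMSO, and did not pass (edgeR adjusted p = 0.215). NFE2, the erythroid member, was under 0.5 CPM in every library. That these 3 genes passed and NFE2L2 did not is not a test that they differ from it. The ratio of NFE2L1 to NFE2L2 per kilobase was 8.65 and 4.69 in RB-BC, against 2.71 and 3.19 in DMSO. The groups did not overlap, but the exact permutation test gave p = 0.333, its smallest possible p, so it cannot decide the question. The higher ratio was in RB-BC 1, where NFE2L2 was low at 62.8 CPM.

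**Figure D4:**
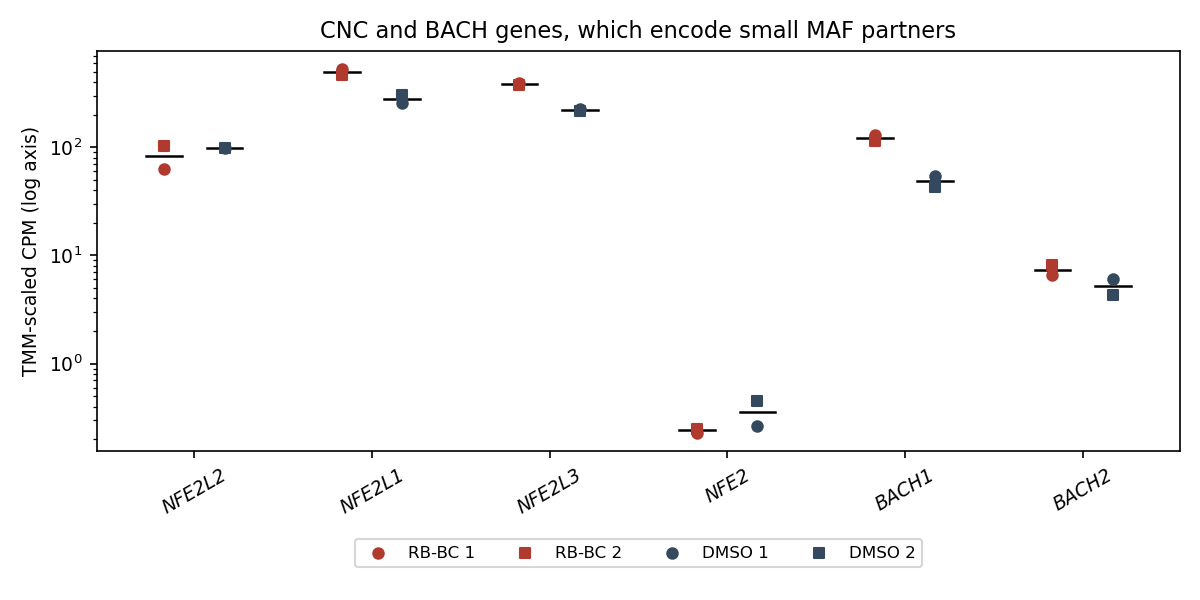
TMM-scaled CPM (log axis) of NFE2L2 and 5 related genes in each library, RB-BC in red left of DMSO in dark blue, with a bar at the mean of 2. BACH1, NFE2L1 and NFE2L3 are higher in both RB-BC libraries, with BACH1 at 131 and 114 CPM against 54.4 and 43.0 CPM in DMSO.

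Large MAF factors carry the activation domain that small MAF proteins lack. MAF, MAFA and NRL were near the limit of detection, with between 2 and 23 counts in every library, and none of these 3 passed edgeR's or DESeq2's test. MAF had 13 and 18 counts in RB-BC, against 4 and 3 counts in DMSO, and its log2 fold change of 1.82 ± 0.64 (SE) missed the threshold (edgeR adjusted p = 0.102), though it was under 0.05 before adjustment.

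Around these genes, 82 further genes of NRF2 turnover, glutathione, thioredoxin, NADPH, detoxification, heme and iron handling and antioxidant enzymes, including the partners and large MAF factors, were described by the same fit. Of 81 tested, 12 rose and 1 fell, which at 16.0% passing is close to the 16.1% of all genes. Counts of the single lists below are small and are to be read against 8.58% of all tested genes higher and 7.53% lower. The median log2 fold change of the 81 genes was 0.23. Without RB-BC 1 only 3 rose and without RB-BC 2 only 6.

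Turnover genes showed no call, with 0 of 13 higher or lower by edgeR's test and a median of −0.057. By DESeq2 1 fell after adjustment. DPP3, a peptidase that binds KEAP1, had 28.7 and 26.7 CPM in RB-BC, against 41.6 and 38.8 CPM in DMSO (−0.54 ± 0.14, SE, edgeR adjusted p = 0.0546). It was the single gene of the list under 0.05 before adjustment in edgeR's test, and the 1 that passed by DESeq2 (adjusted p = 0.0176). CUL3, the scaffold of the KEAP1 ligase, had 65.4 and 68.8 CPM in RB-BC, against 79.6 and 85.5 CPM in DMSO, and missed the threshold (edgeR adjusted p = 0.176). With DMSO 2 left out, SQSTM1 (1.12), an autophagy receptor that sequesters KEAP1, and GSK3A (0.63) were higher and CAND1 (−0.71) and DPP3 (−0.59) lower (edgeR adjusted p = 0.0100, 0.0283, 0.0289 and 0.0321). SQSTM1 had 1272 and 1119 CPM in RB-BC, against 549.6 and 1000 CPM in DMSO 1 and DMSO 2, so the DMSO libraries lay far apart.

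Of 12 glutathione genes tested, 1 rose. GPX4, which reduces lipid hydroperoxides, had 261 and 209 CPM in RB-BC, against 116 and 153 CPM in DMSO (0.80 ± 0.20, SE, edgeR adjusted p = 0.0465). That call was lost without RB-BC 1, RB-BC 2 or DMSO 1 (edgeR adjusted p = 0.298, 0.106 and 0.0634). GCLC and GCLM, subunits of the rate-limiting enzyme of glutathione synthesis and textbook NRF2 targets that were named for that reason, were each at −0.14 and missed the threshold (edgeR adjusted p = 0.706 for GCLC and 0.539 for GCLM). SLC7A11, the cystine importer, was at 0.26 (edgeR adjusted p = 0.297), GSTP1 at 0.37 and GSTM3 at 0.45, and none of these 3 passed.

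Among 11 thioredoxin and peroxiredoxin genes 2 rose and 0 fell, with 1 lower at an unadjusted p under 0.05 in edgeR's test. TXNIP, which binds and inhibits thioredoxin, had 514 and 520 CPM in RB-BC, against 159 and 196 CPM in DMSO (1.54 ± 0.17, SE, edgeR adjusted p = 0.00838). PRDX5, a peroxiredoxin of mitochondria, peroxisomes and cytosol, had 203 and 152 CPM in RB-BC, against 60.6 and 56.6 CPM in DMSO (1.60 ± 0.19, SE, edgeR adjusted p = 0.00939). PRDX3, a mitochondrial peroxiredoxin, lay the other way at 60.3 and 60.4 CPM in RB-BC, against 125 and 83.4 CPM in DMSO, and did not pass (−0.79, edgeR adjusted p = 0.0565), although it did by DESeq2 (adjusted p = 0.00875) and with either DMSO library left out (−0.47 lacking DMSO 1 and −1.05 lacking DMSO 2). TXN2, mitochondrial thioredoxin, was at 0.53, and passed when DMSO 2 was left out (0.73, edgeR adjusted p = 0.0221).

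NADPH-producing enzymes, which supply the reducing power for TXNRD1, NQO1 and glutathione reductase, had 0 of 6 calls by edgeR's test, 0 at an unadjusted p under 0.05 and 0 by DESeq2. Their log2 fold changes ran from −0.17 to 0.34, with IDH1 at 0.34 and ME1 at 0.33. IDH1 passed when DMSO 1 was left out (0.52, edgeR adjusted p = 0.0370) and ME1 when DMSO 2 was left out (0.49, edgeR adjusted p = 0.0451). Of 17 detoxification targets 1 rose and 1 fell. TRIM16L had 20.9 and 24.9 CPM in RB-BC, against 10.6 and 13.4 CPM in DMSO (0.93 ± 0.19, SE, edgeR adjusted p = 0.0294), and is uncertain because it is a near copy of part of TRIM16. ABCG2, a drug efflux pump, fell to 2.01 and 1.41 CPM in RB-BC, against 4.81 and 6.09 CPM in DMSO (−1.67 ± 0.30, SE, edgeR adjusted p = 0.0203). Neither call held without RB-BC 1 or without RB-BC 2. The reductase AKR1B1 (0.54) and the dehydrogenase UGDH (0.45) did not pass, though AKR1B1 did by DESeq2 (adjusted p = 0.0301) and UGDH when DMSO 1 was left out (0.57, edgeR adjusted p = 0.0324).

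Of 9 heme and iron genes 4 rose and 0 fell, with 1 lower at an unadjusted p under 0.05 and 1 lower by DESeq2. Among all tested genes 8.58% were higher and 7.53% lower by edgeR's test. This list too was written with earlier results known, so the count is a description only. BLVRB, biliverdin reductase B, had 74.4 and 42.6 CPM in RB-BC, against 15.3 and 17.8 CPM in DMSO. Its log2 fold change was 1.82 ± 0.29 (SE, edgeR adjusted p = 0.0158), and without RB-BC 1 it was 1.37 (edgeR adjusted p = 0.0532). The ferritin heavy chain FTH1 (1.50 ± 0.22, SE, edgeR adjusted p = 0.0142) and light chain FTL (1.25 ± 0.19, SE, edgeR adjusted p = 0.0148) rose. Both have processed pseudogenes, and how shared reads were counted is not known. ABCB6, a porphyrin transporter of lower abundance, also rose, with 10.1 and 10.8 CPM in RB-BC against 5.52 and 6.18 CPM in DMSO (0.84 ± 0.19, SE, edgeR adjusted p = 0.0378). With RB-BC 1 left out FTH1 missed the threshold (edgeR adjusted p = 0.0909), and FTL and ABCB6 missed it with either RB-BC library left out. ABCB6 missed it also under scaling by totals only (edgeR adjusted p = 0.0655) and with DMSO 1 left out (edgeR adjusted p = 0.0502).

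Of 4 other antioxidant enzymes SOD2, the mitochondrial superoxide dismutase, rose most among all the pathway genes named. It had 335 and 186 CPM in RB-BC, against 23.5 and 31.6 CPM in DMSO (3.24 ± 0.33, SE, edgeR adjusted p = 0.00798). Its call held with each library left out. Cytosolic SOD1 (−0.15), secreted SOD3 (0.60) and catalase, CAT (0.51), missed the threshold (edgeR adjusted p = 0.455, 0.323 and 0.0657). SOD3 passed when DMSO 2 was left out (1.36, edgeR adjusted p = 0.0145), and CAT by DESeq2 (adjusted p = 0.0292) and when DMSO 1 was left out (0.62, edgeR adjusted p = 0.0272).

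**Figure D5:**
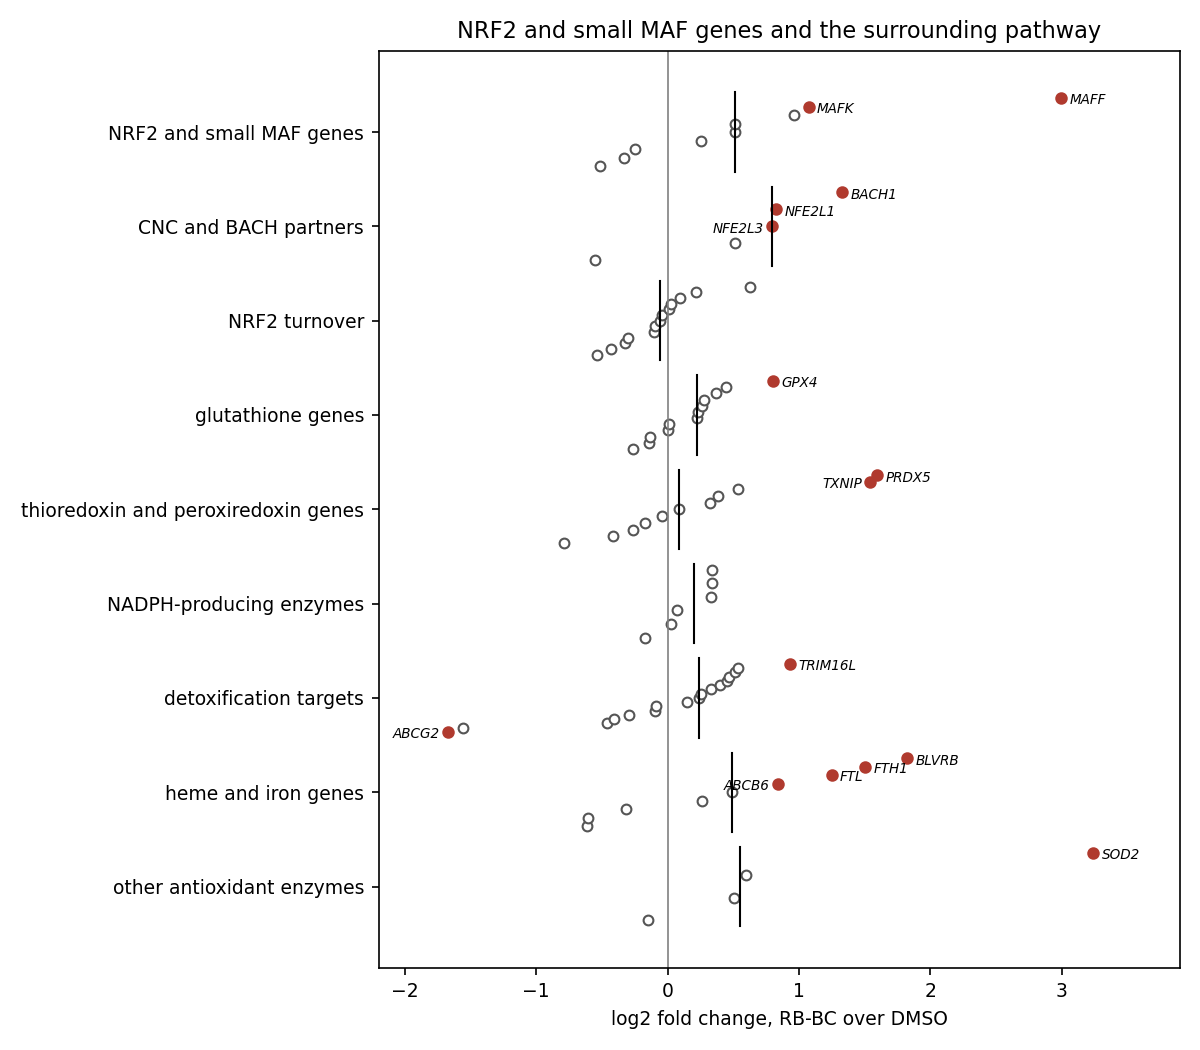
Log2 fold change, RB-BC over DMSO, of the 9 genes and of the surrounding gene lists other than the large MAF factors, 1 point per tested gene, filled and named where the adjusted p was under 0.05, with a bar at each list's median. MAFF at 2.998 and SOD2 at 3.24 lie furthest to the right, and the NRF2 turnover genes gather around a median of −0.057.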

How the data were processed

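The authors deposited whole-number read counts per Ensembl gene, 1 column per library, with no normalization that the values show. Per the labels' protocols, RNA was column-purified and libraries came from an mRNA kit. No label names an aligner, a counter or its strand setting. GRCm38 and mm10, both mouse, are the builds in the submitters' processing notes, whereas all identifiers are human. Gene coordinates are therefore left out, and promoter sequences carry their own RefSeq build. Symbols were looked up by Ensembl identifier (20148 genes) and then in GENCODE release 29 (76 genes), which also gave union exon lengths, and 39 genes had none.

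Counts were tested with edgeR 4.0.16 in R 4.3.3: filterByExpr (minimum count 10, minimum total 15), TMM, a quasi-likelihood test of RB-BC over DMSO, Benjamini-Hochberg adjustment over 13744 genes and a threshold of 0.05. SE is the log2 fold change over the root of the F statistic. The test was also run on simulated counts with the same dispersion for every gene, which does not show how it behaves on these libraries. Levels are TMM-scaled CPM computed here, also per kilobase of exon. No pair of replicates was alike within sampling noise. Alternatives included DESeq2 1.42.0 and limma-voom (limma 3.58.1). Members and lists were chosen with earlier results of these data known. Named were the 9 genes, up to 4 genes of each list by adjusted p (2 where none passed, all in lists of at most 5), and the 3 genes nearest to each called member. GCLC, GCLM, HMOX2 and some turnover genes were named outside that rule after their values were seen. One gene of the surrounding lists is counted in their totals and is not reported here.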

Additional observations from a re-analysis of the deposited data

How the results depend on the processing

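The sign of the log2 fold change held under all 12 alternative settings for 8 of the 9 genes, the exception being NFE2L2, which was 0.067 without RB-BC 1 and −0.64 without RB-BC 2. Among other named genes MAFA and NRL changed sign without DMSO 1. With a library left out MAFA ran from −0.032 to 2.77 and NRL from −0.26 to 1.25. All genes passing numbered 1205 with library totals alone and from 205 to 3648 with a library left out, against 2214. Of the 9 genes, 4 were higher and 1 lower by DESeq2, and with a library left out 1 to 4 were higher and 0 to 1 lower. HMOX1 passed with library totals alone, DESeq2, limma-voom and without either DMSO library. Of the other pathway genes 3 to 17 were higher and 0 to 5 lower with a library left out, and 4 were lower by DESeq2. The cause of these differences was not tested, except that fits without 1 library rest on the pair in the other group for their spread.

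Replicate numbers do not pair the libraries by any label, and the deviations of same-numbered libraries correlated at −0.07 across genes. With the replicate number as a block 2 of the other pathway genes were lower and HMOX1 passed (edgeR adjusted p = 0.0184). By counts instead of reads per kilobase, MAFF made 31.3% of small MAF reads in RB-BC and 8.35% in DMSO, MAFG 45.9% in RB-BC, and MAFK 22.8% in RB-BC and 23.0% in DMSO.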

Other observations

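Over the 4 libraries, the genes whose gene-centred log2 CPM lay nearest to MAFF among 12197 genes were CFB, which encodes complement factor B (Euclidean distance 0.152), G0S2, an inhibitor of lipolysis (0.167), and POU2F2, which encodes the transcription factor OCT2 (0.206). Their log2 fold changes were 3.13 for CFB, 3.13 for G0S2 and 3.12 for POU2F2. Nearest to MAFK were MAP3K8, a kinase upstream of MEK (distance 0.0300, log2 fold change 1.06), PLEKHO1 (0.0418, 1.04) and the claudin gene CLDN7 (0.0453, 1.09). All 6 passed edgeR's test, but the calls and fold changes follow largely from their choice by nearness to MAFF or MAFK. The 3 genes near MAFK missed the threshold without RB-BC 1, and MAP3K8 and CLDN7 also missed it without RB-BC 2, as did CLDN7 with library totals alone as the scaling. With 4 libraries such nearness describes level differences only.

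Of the 82 surrounding genes, 63 had a promoter window, and 13 of these held the core TGACNNNGC in the 250 bases before a start. The 63 genes had 97 windows between them. This count of genes is therefore not comparable with the 10.9% of all windows that hold the core. Of the 12 of those 13 that were tested, 1 passed edgeR's test, ABCB6, against 16.1% of all tested genes, too few to read as a result about genes that hold the core. GCLM, GSTP1 and ME1, where the core lies 34, 66 and 137 bases before the start, were at −0.14, 0.37 and 0.33.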
